A study of Mus musculus with 8 samples.

Results

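The genes described here are 45 genes of mitosis and of the G2/M transition, chosen by symbol: mitotic cyclins, mitotic kinases, the spindle checkpoint, the chromosomal passenger complex, spindle motors, cytokinesis proteins and the proteins that shape mitotic chromosomes. All 45 listed symbols were found among the 10924 genes of the expression table, and 41 of them passed a filter on low values (at least 10 in at least 2 libraries), as did 9031 genes in all. The other 4, Cdk1, Bub1, Cenpf and Smc2, were too low to be tested and are given by their values alone.

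The cells were tumor-derived mammary lines of FBV/N mice, and every group carried the polyoma middle T oncogene (PyMT), which the MMTV promoter drives in mammary epithelium. They were either wild type for Lats1 (WT), the Hippo pathway kinase, or carried its conditional knockout (Lats1-CKO), and each genotype was sorted into luminal cells (high EpCAM, high CD49f) and basal-like cells (low EpCAM, high CD49f), which were grown for a short time before RNA was taken. Expression was measured by MARS-seq, a 3′-end method in which each RNA sample gets its barcode during reverse transcription, in 2 libraries for each of the 4 groups. Values are read counts normalized for library size, so that they compare 1 gene between libraries and not 1 gene with another. Whether the libraries of a group stand for separate cultures is not given by the labels, and p-values therefore cover no more than the spread among these 8 samples.

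The deposited reads summed to between 1070358 and 2334446 per library. Lats1 read 41.9 and 62.5 in WT luminal and 30.3 and 42.2 in WT basal-like cells, against 8.04 to 13.4 in the 4 Lats1-CKO libraries. Of the surface markers of the sort, Epcam read 708 and 523 in WT luminal and 562 and 255 in WT basal-like cells, which overlap. It read 511 and 555 in Lats1-CKO luminal cells and 10.7 and 33.7 in Lats1-CKO basal-like cells. Itga6, the gene of CD49f, read 165 and 139 in WT luminal and 139 and 182 in WT basal-like cells. It differed more within the Lats1-CKO groups, at 81.6 and 338 in luminal and 48.2 and 195 in basal-like cells. The summed level of the 8 basal and myoepithelial markers found, of 10 listed, was lower in the Lats1-CKO basal-like libraries (201 and 1261) than in the other 6 (2008 to 23765), so the basal-like label rests on the sort and not on these markers. WT luminal replicate 1 stood apart by its interferon-stimulated genes, of which the 9 found, of 10 listed, summed to 2695 against 104 to 807 elsewhere. Lats1-CKO basal-like replicate 2 stood apart by its cartilage genes, of which the 8 found, of 10 listed, summed to 31842 against 300 to 5102 elsewhere.

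A cell enters mitosis when cyclin B and its kinase CDK1 are switched on by the CDC25 phosphatases and Polo-like kinase 1, and it leaves mitosis when the anaphase-promoting complex (APC/C), with CDC20, marks cyclin B and securin for destruction. The messages of these proteins are low in G1 and rise together toward G2 and M, so that their summed level in a bulk sample rises with the share of dividing cells. Their promoters are known for a pair of elements, the cell cycle genes homology region (CHR), which the MuvB complex binds with B-MYB and FOXM1 in dividing cells and with the pocket proteins in resting cells, and the CCAAT box, which NF-Y binds. In a bulk sample, fewer cycling cells and less of these messages per cell cannot be told apart.

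The genes moved together from library to library, within groups as well as between them. Together they took 0.123% of the reads in WT luminal replicate 1 (95% Wilson interval 0.116 to 0.129) but 0.400% in WT luminal replicate 2 (0.392 to 0.408), a difference between libraries of the same label. For the WT basal-like libraries the share was 0.561% (0.551 to 0.572) and 0.294% (0.287 to 0.302). For Lats1-CKO luminal it was 0.351% (0.342 to 0.361) and 0.401% (0.391 to 0.411), and for Lats1-CKO basal-like 0.380% (0.369 to 0.392) and 0.210% (0.203 to 0.218). The intervals cover counting error only. In each of the 4 groups the intervals of the libraries lay apart, and the highest and lowest libraries were both WT.

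Gene by gene, the same libraries held most of the extremes. All 41 genes lay below their own mean in WT luminal replicate 1, and 37 of the 41 (90.2%) had their lowest value there, against 15.4% of all genes tested. All 41 lay above their mean in WT basal-like replicate 1, where 28 (68.3%) had their highest value, against 13.7% of all genes. With WT luminal replicate 1 set aside, 30 of the 41 (73.2%) were lowest in Lats1-CKO basal-like replicate 2, against 20.9% of all genes. The median of the other 7 libraries exceeded the value in WT luminal replicate 1 by a median factor of 3.55, from 1.26 for Bub3 to 9.47 for Kif4. On values raised by 1, the factor was at least 2 for 38 of the 41 (92.7%) and for 8.37% of all genes, and the exceptions were Bub3, Tpx2 and Ect2.

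**Figure D1:**
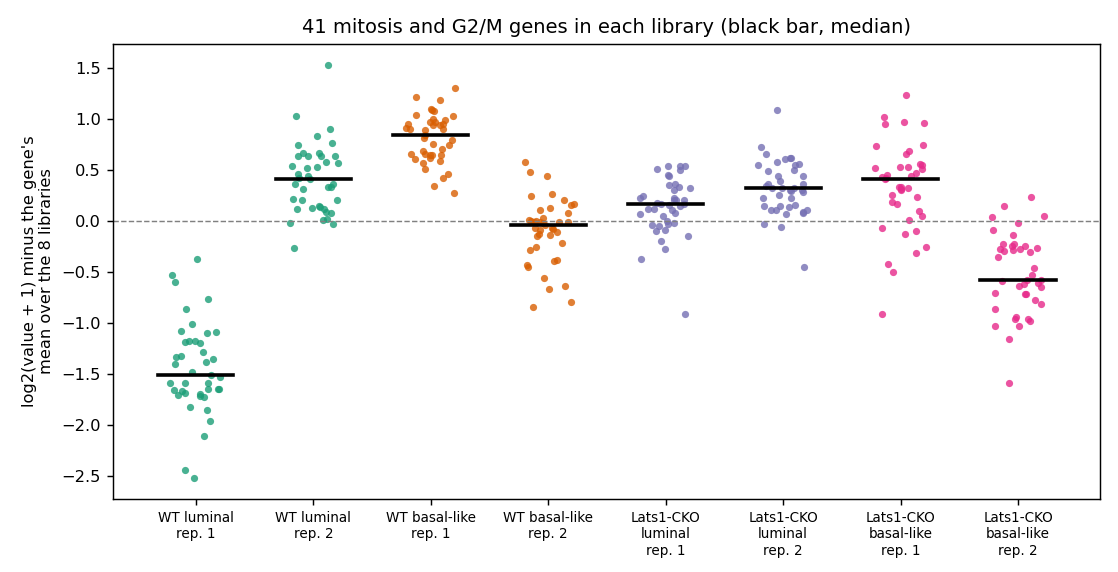
Level of each of the 41 tested mitosis and G2/M genes in each library, as log2(value + 1) minus the mean of that gene over the 8 libraries. Points are genes, colors are groups and black bars are medians, which run from -1.51 in WT luminal replicate 1 to 0.85 in WT basal-like replicate 1.

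The plot of deviations by library shows the size of this shift. The median deviation over the genes, in log2 units, was -1.51 and 0.42 for WT luminal, 0.85 and -0.04 for WT basal-like, 0.17 and 0.32 for Lats1-CKO luminal, then 0.42 and -0.57 for Lats1-CKO basal-like. Scaled to the reads of each library in place of the authors' size factors, the extremes were -1.42 and 0.84. The spread of this median between the libraries of a group was 0.83 (pooled SD over 4 groups of 2). Once the library median was taken away, 22.3% of the genes' summed squared deviation was left, and the SD of a gene over the libraries went from a median of 0.79 to 0.33, falling for 40 of the 41 (all but Bub3). The median SD over all genes tested was 0.48. WT luminal replicate 1 was also the shallowest library, with 1070358 reads, and Lats1-CKO basal-like replicate 1, the next shallowest with 1128766, had a share of 0.380%. The interferon-stimulated genes were high in WT luminal replicate 1 and the cartilage genes in Lats1-CKO basal-like replicate 2, the pair of libraries where the mitotic genes were low. The part of depth and of these genes in the result was not tested.

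**Figure D2:**
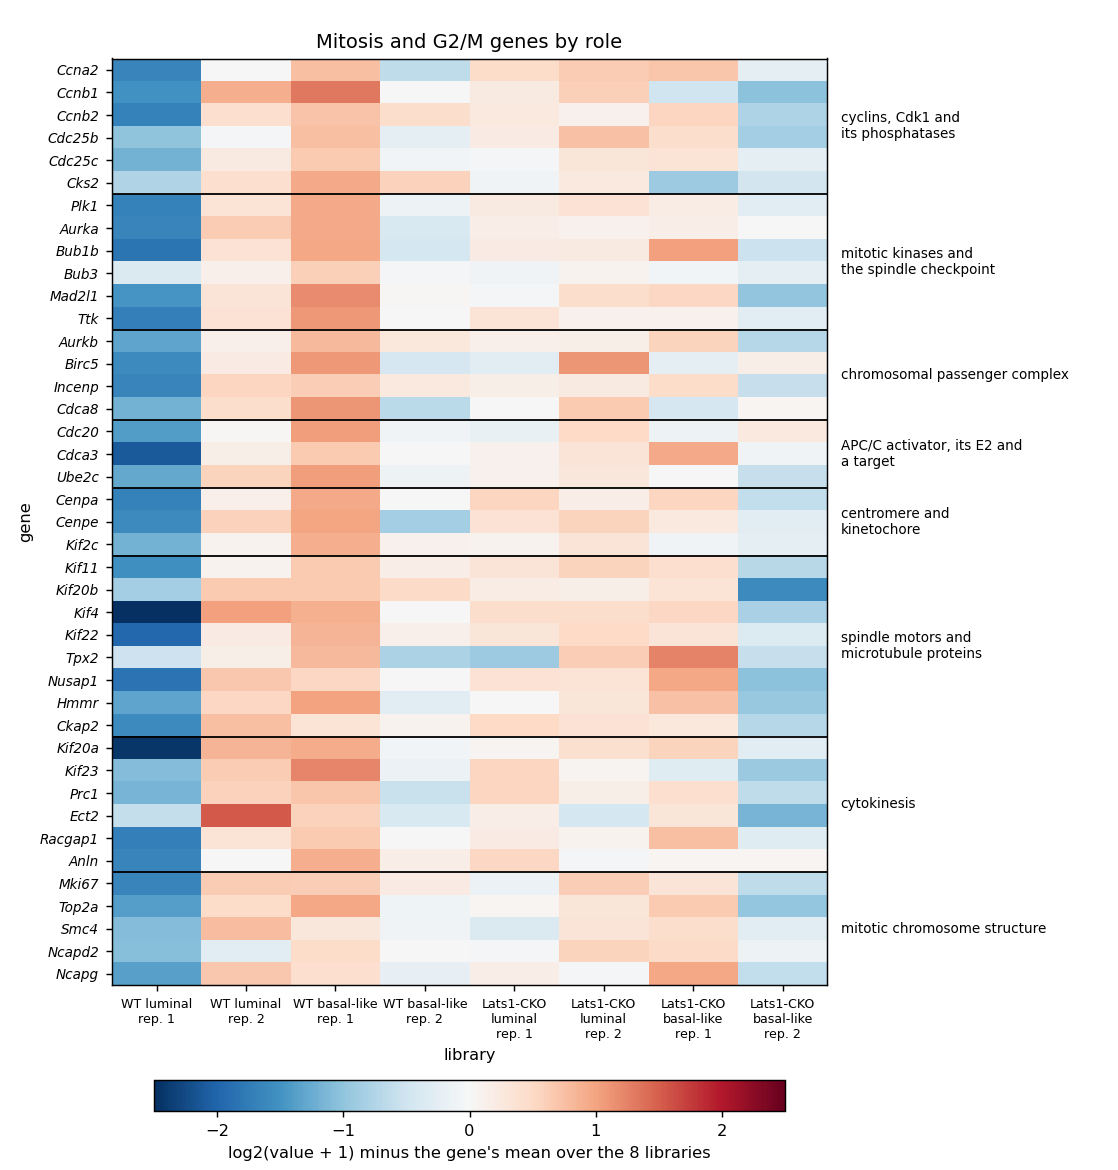
The 41 tested genes in rows, grouped by role, and the 8 libraries in columns. Color gives log2(value + 1) minus the mean of the gene over the libraries, blue below and red above, and the column of WT luminal replicate 1 is blue in all 41 rows.

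Among the cyclins and the regulators of CDK1, Ccnb1, cyclin B1, which carries CDK1 into mitosis, read 10.8 and 61.9 for WT luminal, 82.4 and 32.6 for WT basal-like, 38.4 and 49.5 for Lats1-CKO luminal, then 22.8 and 15.5 for Lats1-CKO basal-like. Ccnb2, the cyclin B2 of the Golgi-associated pool, read 48.7 and 214 for WT luminal, 262 and 217 for WT basal-like, 190.0 and 173 for Lats1-CKO luminal, then 232 and 93.2 for Lats1-CKO basal-like. Ccna2, cyclin A2 of S phase and G2, read 8.11 and 28.1 for WT luminal, 47.4 and 17.5 for WT basal-like, 38.4 and 43.4 for Lats1-CKO luminal, then 45.5 and 23.3 for Lats1-CKO basal-like. For all 3 cyclins WT luminal replicate 1 was the lowest library and WT basal-like replicate 1 the highest, and the WT luminal libraries differed by more than 3-fold from each other. The phosphatases that remove inhibitory phosphates from CDK1 varied less. Cdc25b read 41.9 and 83.6 for WT luminal, 145 and 71.6 for WT basal-like, 98.8 and 142 for Lats1-CKO luminal, then 117 and 46.6 for Lats1-CKO basal-like. Cdc25c read 25.7 and 68.9 for WT luminal, 93.3 and 56.5 for WT basal-like, 57.6 and 73.7 for Lats1-CKO luminal, then 75.0 and 50.5 for Lats1-CKO basal-like. Cks2, a small subunit that docks CDK1 on its substrates, kept another order and read 13.5 and 31.9 for WT luminal, 46.6 and 35.8 for WT basal-like, 22.1 and 28.3 for Lats1-CKO luminal, then 12.1 and 16.8 for Lats1-CKO basal-like. It was lowest in Lats1-CKO basal-like replicate 1, and WT luminal replicate 1 lay between the Lats1-CKO basal-like libraries. Cdk1 itself was barely captured, with 0 and 0.638 for WT luminal, 10.9 and 7.96 for WT basal-like, 5.76 and 2.02 for Lats1-CKO luminal, then 6.70 and 7.77 for Lats1-CKO basal-like, and its 1 read in the WT luminal pair, against 24, 8 and 11 reads in the other groups in the order above, gave ratios of 21.8 (exact 95% counting interval 3.55 to 895), 9.08 (1.22 to 403) and 16.7 (2.43 to 719). These intervals, like those below for Cenpf, Smc2 and Bub1, pool the libraries of a group. They leave out the spread between libraries, so they are no test of a difference between groups.

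Among the kinases, Plk1, Polo-like kinase 1, which drives mitotic entry and centrosome maturation, read 85.1 and 353 for WT luminal, 539 and 256 for WT basal-like, 327 and 360.3 for Lats1-CKO luminal, then 319 and 232 for Lats1-CKO basal-like. Aurka, Aurora A, which builds the spindle poles, read 32.4 and 162 for WT luminal, 199.7 and 78.8 for WT basal-like, 116 and 112 for Lats1-CKO luminal, then 117 and 102 for Lats1-CKO basal-like. Ttk, the MPS1 kinase that starts the spindle checkpoint, ran from 2.70 to 24.9. Plk1 followed the common order so closely that its SD was 0.17 once the library median was taken away, next to 0.16 for Incenp, the lowest of the 41. The spindle checkpoint proteins hold the APC/C back until each chromosome is attached. Bub1b, the BUBR1 subunit of the inhibitory complex, read 18.9 and 89.9 for WT luminal, 138 and 50.9 for WT basal-like, 80.6 and 81.8 for Lats1-CKO luminal, then 142 and 47.9 for Lats1-CKO basal-like. Mad2l1, which encodes MAD2, read 18.9 and 68.3 for WT luminal, 126 and 55.7 for WT basal-like, 52.8 and 74.7 for Lats1-CKO luminal, then 79.0 and 27.2 for Lats1-CKO basal-like. Bub3, the WD40 partner of BUB1 and BUBR1, read 269 and 376 for WT luminal, 522 and 338 for WT basal-like, 324 and 368 for Lats1-CKO luminal, then 331 and 294 for Lats1-CKO basal-like. Bub3 was the steadiest of the genes, with its lowest and highest libraries apart by a factor of 1.94, and it too was lowest in WT luminal replicate 1. Bub1 stood near the limit of detection, with 2.70 and 8.93 for WT luminal, 8.55 and 2.39 for WT basal-like, 1.92 and 4.04 for Lats1-CKO luminal, then 6.70 and 0 for Lats1-CKO basal-like.

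The chromosomal passenger complex corrects faulty attachments and then guides cytokinesis. Its kinase, Aurkb (Aurora B), read 41.9 and 117 for WT luminal, 188 and 129 for WT basal-like, 116 and 118 for Lats1-CKO luminal, then 157 and 64.7 for Lats1-CKO basal-like. Birc5, survivin, read 101 and 355 for WT luminal, 651 and 228 for WT basal-like, 253 and 656 for Lats1-CKO luminal, then 257 and 342 for Lats1-CKO basal-like. Incenp, the scaffold, ran from 39.2 to 190 and Cdca8, borealin, from 78.4 to 384. Birc5 did not keep to the order of the others: it was as high in Lats1-CKO luminal replicate 2 as in WT basal-like replicate 1, and among Lats1-CKO basal-like libraries it was higher in replicate 2, where most of the genes were lower.

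At the APC/C, Cdc20, its mitotic activator, read 52.7 and 143 for WT luminal, 291 and 132 for WT basal-like, 123 and 199.8 for Lats1-CKO luminal, then 129 and 166 for Lats1-CKO basal-like. Ube2c, the E2 enzyme that primes ubiquitin on its targets, read 241 and 859 for WT luminal, 1206 and 535 for WT basal-like, 633 and 716 for Lats1-CKO luminal, then 592 and 395 for Lats1-CKO basal-like. Cdca3, a target of the complex, read 41.9 and 203 for WT luminal, 289.9 and 181 for WT basal-like, 199 and 230.1 for Lats1-CKO luminal, then 355 and 172 for Lats1-CKO basal-like. Ube2c and Cdc20 peaked in WT basal-like replicate 1 and Cdca3 in Lats1-CKO basal-like replicate 1, and all 3 were lowest in WT luminal replicate 1. At the centromere, Cenpa, the histone H3 variant that marks it, read 85.1 and 300.4 for WT luminal, 533 and 275 for WT basal-like, 402 and 309.9 for Lats1-CKO luminal, then 399 and 181 for Lats1-CKO basal-like. Cenpf, a kinetochore protein of G2 and M, was at 0 to 9.60, and its 19 reads in Lats1-CKO luminal cells against 7 in WT luminal cells gave a ratio of 3.08 (1.24 to 8.67), beside 1.68 (0.62 to 4.99) for WT basal-like and 1.30 (0.36 to 4.52) for Lats1-CKO basal-like cells. Cenpe, the kinetochore motor, ran from 16.2 to 102. Kif2c, the microtubule depolymerase MCAK, read 36.5 and 89.3 for WT luminal, 159 and 91.5 for WT basal-like, 89.2 and 106 for Lats1-CKO luminal, then 79.0 and 72.5 for Lats1-CKO basal-like.

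The spindle motors and microtubule proteins build and move the spindle. Kif11, the Eg5 motor that pushes the poles apart, read 14.9 and 47.8 for WT luminal, 71.5 and 50.1 for WT basal-like, 56.6 and 66.6 for Lats1-CKO luminal, then 60.3 and 27.2 for Lats1-CKO basal-like. Kif4, a chromosome-bound motor, read 4.05 and 58.0 for WT luminal, 52.9 and 27.8 for WT basal-like, 38.4 and 38.4 for Lats1-CKO luminal, then 40.2 and 15.5 for Lats1-CKO basal-like. Kif22, the chromokinesin Kid, read 32.4 and 149 for WT luminal, 233 and 142 for WT basal-like, 159 and 182 for Lats1-CKO luminal, then 161 and 101 for Lats1-CKO basal-like. Kif4 thus differed by more than 10-fold between libraries of the same WT luminal label. Kif20b, a kinesin of late mitosis and cytokinesis, read 13.5 and 40.2 for WT luminal, 40.4 and 35.8 for WT basal-like, 28.8 and 28.3 for Lats1-CKO luminal, then 32.1 and 7.77 for Lats1-CKO basal-like. Tpx2, which activates Aurora A on microtubules, read 4.05 and 7.02 for WT luminal, 11.7 and 3.18 for WT basal-like, 2.88 and 10.1 for Lats1-CKO luminal, then 16.1 and 3.88 for Lats1-CKO basal-like. These are exceptions, since Kif20b was lowest in Lats1-CKO basal-like replicate 2 and Tpx2 in Lats1-CKO luminal replicate 1, although most Tpx2 values lay near or under 10, where counting error is large. Nusap1, Hmmr and Ckap2, which bind spindle microtubules, were also lowest in WT luminal replicate 1, with ranges of 5.41 to 44.2, 18.9 to 98.7 and 24.3 to 127.

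In cytokinesis, Kif20a, the MKLP2 motor that carries the passenger complex to the midzone, read 14.9 and 153 for WT luminal, 162 and 81.1 for WT basal-like, 89.2 and 112 for Lats1-CKO luminal, then 126 and 69.9 for Lats1-CKO basal-like. Kif23, the MKLP1 motor of centralspindlin, read 41.9 and 140.3 for WT luminal, 211 and 81.1 for WT basal-like, 131 and 94.9 for Lats1-CKO luminal, then 72.3 and 46.6 for Lats1-CKO basal-like. Prc1, which bundles midzone microtubules, read 23.0 and 79.1 for WT luminal, 86.3 and 35.8 for WT basal-like, 77.7 and 58.5 for Lats1-CKO luminal, then 71.0 and 33.7 for Lats1-CKO basal-like. Each was lowest in WT luminal replicate 1. Anln, anillin of the contractile ring, read 12.2 and 39.5 for WT luminal, 76.2 and 45.3 for WT basal-like, 57.6 and 39.4 for Lats1-CKO luminal, then 41.5 and 41.4 for Lats1-CKO basal-like. Ect2, the exchange factor that activates RhoA there, read 8.11 and 38.9 for WT luminal, 19.4 and 9.55 for WT basal-like, 14.4 and 9.08 for Lats1-CKO luminal, then 16.1 and 5.18 for Lats1-CKO basal-like. Racgap1, the partner of KIF23, ran from 68.9 to 384. Anln lay between 39.4 and 57.6 in the 4 Lats1-CKO libraries, and Ect2 was highest in WT luminal replicate 2 and lowest in Lats1-CKO basal-like replicate 2.

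Of the proteins on mitotic chromosomes, Mki67, the proliferation marker Ki-67 that coats them, read 14.9 and 76.5 for WT luminal, 75.4 and 56.5 for WT basal-like, 44.1 and 75.7 for Lats1-CKO luminal, then 61.6 and 31.1 for Lats1-CKO basal-like. Top2a, the topoisomerase that untangles sister chromatids, read 93.2 and 337 for WT luminal, 483 and 228 for WT basal-like, 253 and 302 for Lats1-CKO luminal, then 388 and 126 for Lats1-CKO basal-like. Mki67 and Top2a were both low in Lats1-CKO basal-like replicate 2 (31.1 and 126) as well as in WT luminal replicate 1. The condensin subunits compact the chromosomes. Smc4 read 5.41 and 22.3 for WT luminal, 15.5 and 11.9 for WT basal-like, 9.60 and 16.1 for Lats1-CKO luminal, then 17.4 and 10.4 for Lats1-CKO basal-like. Ncapd2 read 55.4 and 98.2 for WT luminal, 162 and 118 for WT basal-like, 115 and 174 for Lats1-CKO luminal, then 163 and 107 for Lats1-CKO basal-like. Ncapg read 2.70 and 14.0 for WT luminal, 11.7 and 7.16 for WT basal-like, 9.60 and 8.07 for Lats1-CKO luminal, then 17.4 and 5.18 for Lats1-CKO basal-like. Their lowest library was again WT luminal replicate 1, and Smc2, with 2.70 and 4.47 for WT luminal, 10.1 and 2.39 for WT basal-like, 6.72 and 4.04 for Lats1-CKO luminal, then 9.38 and 6.47 for Lats1-CKO basal-like, stayed under the filter. The counting intervals of the ratios to WT luminal cells included 1 for Smc2 (1.61, 1.39 and 2.03) and for Bub1 (0.79, 0.43 and 0.47) in each of the other groups, in the order above.

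**Figure D3:**
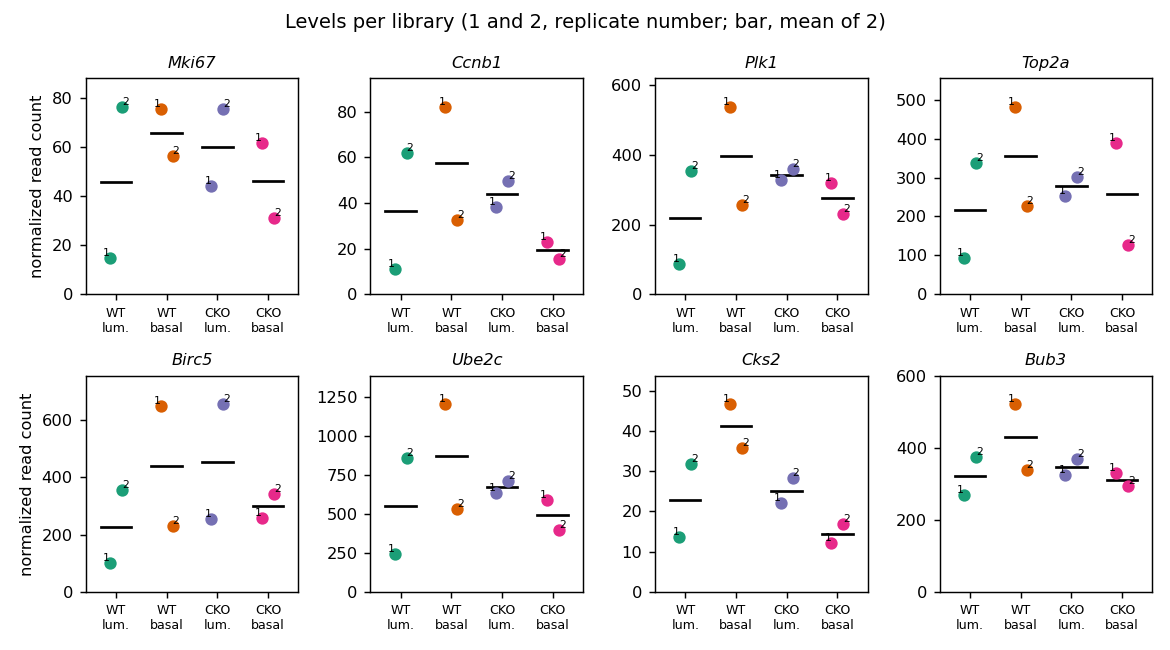
Normalized read counts of 8 of the genes in each library, with replicate numbers beside the points and a bar at the mean of each group of 2. Axes start at 0 and differ between genes, and in 7 of the panels the WT luminal points lie at least 2-fold apart, the exception being Bub3 (269 and 376).

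Each role showed the drop in WT luminal replicate 1, which the heat map by role shows as 1 blue column. The median deviation there was -1.67 for the kinases and the spindle checkpoint (6 genes), -1.59 for the centromere and kinetochore (3), -1.56 for the spindle motors and microtubule proteins (8), -1.46 for the passenger complex (4), -1.41 for cytokinesis (6), -1.40 for the APC/C group (3), -1.35 for mitotic chromosome structure (5) and -1.34 for the cyclins and their regulators (6). The roles lay within 0.33 log2 units of each other, less than the drop itself.

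Since the genes moved together, their promoters are shown. Windows from 250 bases before to 50 after the start site were taken from RefSeq (GRCm38.p6) for 38 of the 45 genes, and 7 were not matched (Ccna2, Cdc25c, Aurkb, Incenp, Kif20a, Tpx2 and Smc4). The CHR was searched as TTTGAA and the CCAAT box as CCAAT, on both strands, so that they also read TTCAAA and ATTGG. The variant TTTAAA was searched apart. The stretches below run from 100 bases before to 40 after the start site, 5′ to 3′ along the gene, with every match to the 3 motifs in capitals. They are genes with both elements near the start, then Ccnb1, with CCAAT boxes and TTTAAA but no TTTGAA, and Birc5, with none of the 3 in the stretch shown.
Ccnb2: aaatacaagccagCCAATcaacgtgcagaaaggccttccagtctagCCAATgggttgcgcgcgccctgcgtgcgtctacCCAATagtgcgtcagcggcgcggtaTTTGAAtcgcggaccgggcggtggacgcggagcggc
Cdc20: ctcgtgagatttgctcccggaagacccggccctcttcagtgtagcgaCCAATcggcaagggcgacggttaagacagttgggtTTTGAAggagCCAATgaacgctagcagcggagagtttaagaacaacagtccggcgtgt
Ube2c: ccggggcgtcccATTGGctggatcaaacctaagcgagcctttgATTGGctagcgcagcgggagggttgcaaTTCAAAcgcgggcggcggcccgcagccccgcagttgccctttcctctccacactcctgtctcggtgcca
Kif23: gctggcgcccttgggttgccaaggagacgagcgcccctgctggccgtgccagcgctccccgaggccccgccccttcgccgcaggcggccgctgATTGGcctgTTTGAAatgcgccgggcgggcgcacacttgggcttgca
Cdk1: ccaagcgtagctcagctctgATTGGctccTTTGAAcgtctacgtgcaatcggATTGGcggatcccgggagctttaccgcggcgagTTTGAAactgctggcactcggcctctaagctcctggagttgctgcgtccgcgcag
Plk1: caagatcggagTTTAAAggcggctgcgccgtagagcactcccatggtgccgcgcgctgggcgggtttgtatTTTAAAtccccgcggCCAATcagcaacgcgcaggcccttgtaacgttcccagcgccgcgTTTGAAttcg
Bub3: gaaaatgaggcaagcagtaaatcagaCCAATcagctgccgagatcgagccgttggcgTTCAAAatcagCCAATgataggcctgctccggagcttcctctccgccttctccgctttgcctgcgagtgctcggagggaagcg
Ccnb1: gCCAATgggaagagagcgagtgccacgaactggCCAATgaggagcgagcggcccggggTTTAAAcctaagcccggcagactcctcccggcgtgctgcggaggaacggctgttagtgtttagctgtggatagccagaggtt
Birc5: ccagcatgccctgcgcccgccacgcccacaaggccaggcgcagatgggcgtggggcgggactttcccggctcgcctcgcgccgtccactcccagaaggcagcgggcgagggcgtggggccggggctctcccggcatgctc
On GRCm38.p6 these lie at chr9:70421515-70421654 (minus strand), chr4:118437304-118437443 (minus), chr2:164769829-164769968 (plus), chr9:61946760-61946899 (minus), chr10:69352873-69353012 (minus), chr7:122159335-122159474 (plus), chr7:131560270-131560409 (plus), chr13:100786447-100786586 (minus) and chr11:117849137-117849276 (plus).

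TTTGAA was present in 30 of the 38 promoters (78.9%), against 20.2% of all 27025 genes with a RefSeq window and 13.2% of the 7248 other genes tested here. A CCAAT box was present in 32 (84.2%, against 41.1% and 42.8%), and both in 27 (71.1%, against 7.97% and 5.34%). TTTAAA was found in 8 (21.1%, against 14.9% and 10.5%), and an E2F site, searched on both strands as TTCCCGC, and likewise as TTCGCGC, then as TTGCCGC, and last as TTGGCGC, in 7 (18.4%, against 10.9% and 20.5%). The elements also kept their place. TTTGAA began within the first 25 bases after the start in 29.3% of the genes' 41 windows and 1.31% of all windows, and a CCAAT box began 75 to 50 bases before the start in 39.0% and 6.99%. A match describes letters in the window and not a site in use.

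**Figure D4:**
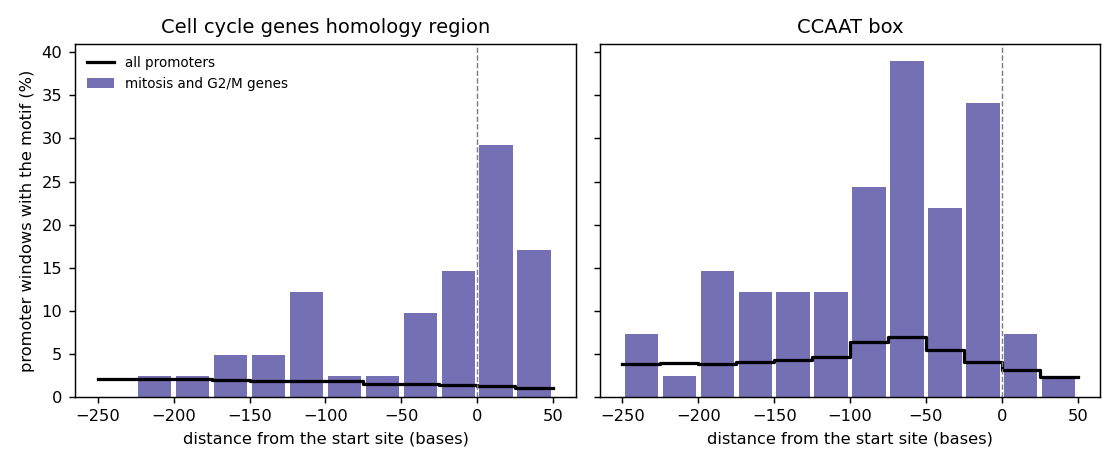
Share of promoter windows in which the cell cycle genes homology region (TTTGAA, left) or the CCAAT box (right) begins in each bin of 25 bases, by distance from the start site. Bars are the 41 windows of the mitosis and G2/M genes and the black line all 32851 windows, and the bars peak at 29.3% just after the start site on the left and at 39.0% before it on the right.

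The 27 tested genes with TTTGAA had a median deviation of -1.53 in WT luminal replicate 1 and the 7 matched genes without it -1.51. Of these 7, Birc5, Ccnb1 and Cenpe carried the variant TTTAAA, so the split is not one of genes with and without any CHR. All were chosen as mitotic genes, and the part of the CHR in how they moved was not tested. Even Birc5, Mad2l1 and Nusap1, with neither TTTGAA nor CCAAT, were lowest in that library. Among other genes tested, 22.2% of the 387 with both elements and 13.4% of the 3659 with neither were lowest there. Further mitotic genes and genes of DNA replication were not taken out of these other genes. Of those tested, 47 of 59 and 15 of 16 were lowest there, so the shares do not describe genes outside the cell cycle. The part of the elements in these shares was not tested.

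The first comparison asked how basal-like cells differed from luminal cells with Lats1 intact. In WT cells 40 of the 41 genes were higher in basal-like than in luminal cells (all but Ect2), with a median log2 fold change of 0.92 beside 0.01 for all genes tested. None was called at an adjusted p under 0.05 (limma, Benjamini-Hochberg), where 0% of all genes were called, and none was called with edgeR or with either setting of DESeq2 in this or any other comparison below. Mki67 differed by 0.92 ± 0.74 (SE; 95% interval -0.82 to 2.65), Plk1 by 1.09 ± 0.65 (-0.43 to 2.62) and Top2a by 0.90 ± 0.74 (-0.83 to 2.62), so differences of more than 2-fold in the positive direction lay within the intervals. The threshold of the study was an unadjusted p under 0.05 with a fold over 1.5, set on DESeq2. Here and below it was applied to limma unless another tool is named. By it 1 gene passed, against 1.47% of all genes: Anln (chromosome 9, 22332012 to 22389188, minus strand), at 1.37 ± 0.57 (limma adjusted p = 1). With DESeq2 under the settings of the study none of the 41 passed. Both libraries were higher without overlap for 7 of the 41 (Ccnb2, Aurkb, Kif11, Kif2c, Anln, Cks2 and Ncapd2), against 11.9% of all genes, and lower for 0, against 12.7%. The direction rested on 1 library. Without WT luminal replicate 1 the median was -0.03, with 19 genes higher and 22 lower, and without WT luminal replicate 2 it was 1.87. It was 0.56 without WT basal-like replicate 1 and 1.41 without replicate 2. The median was 0.66 with edgeR and 0.53 with DESeq2 under the settings of the study, which shrink fold changes.

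The second comparison asked what Lats1 loss changed in cells sorted as luminal, and it shares the WT luminal libraries with the first. Again 40 of the 41 genes were higher, here after Lats1 loss, with a median of 0.78 beside 0.01 for all genes. None was called (0% of all genes), and none passed the threshold of the study, which 2.78% of all genes did. Ccna2 had the highest value, 1.36 ± 0.70 (limma adjusted p = 1), followed by Kif22 at 1.27 and Cdca3 at 1.20, and Ect2 (-0.61), Tpx2 (0.04) and Bub3 (0.12) the lowest. Mki67 stood at 0.75 ± 0.74 (95% interval -0.99 to 2.48). Both libraries were higher without overlap for 6 of the 41 (Ccna2, Cdc25b, Cenpa, Kif11, Kif22 and Ncapd2), against 15.9% of all genes, and lower for 0, against 15.2%. Without WT luminal replicate 1 the median was -0.18, with 12 genes higher and 29 lower, and without WT luminal replicate 2 it was 1.78. With edgeR and with DESeq2 the median was smaller, at 0.45 (edgeR), 0.45 (DESeq2, default settings) and 0.32 (settings of the study).

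**Figure D5:**
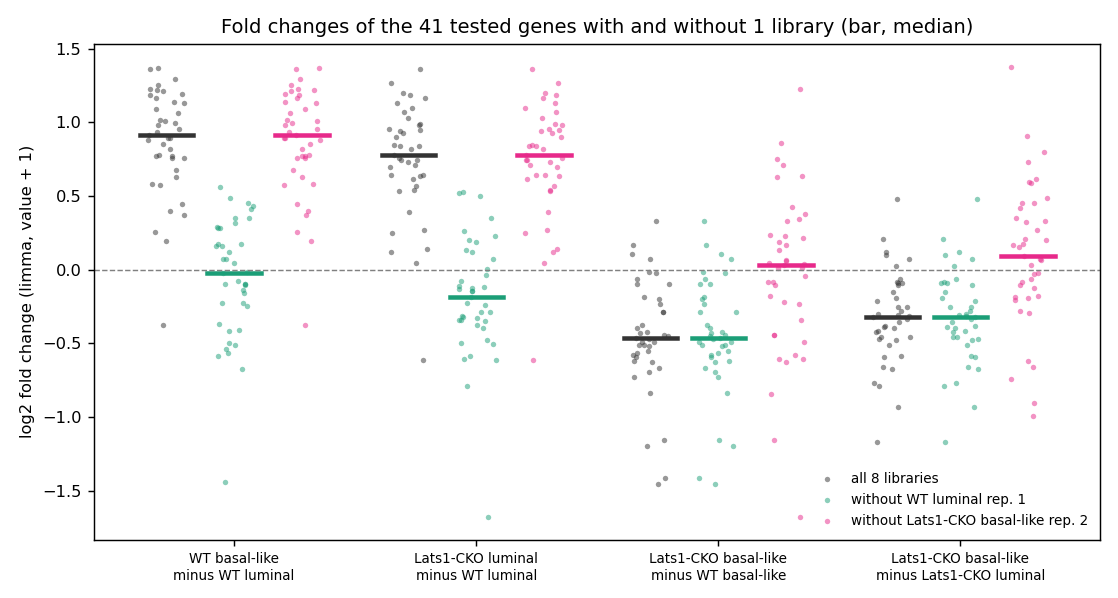
Log2 fold changes of the 41 genes in the 4 comparisons between groups, with all 8 libraries (grey), without WT luminal replicate 1 (green) and without Lats1-CKO basal-like replicate 2 (pink). Points are genes and bars are medians, and leaving out WT luminal replicate 1 moves the first median from 0.92 to -0.03 and the second from 0.78 to -0.18.

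In cells sorted as basal-like the direction was the opposite. Of the 41 genes, 37 were lower after Lats1 loss, with a median of -0.46 beside -0.02 for all genes. Markers of other cell types moved in the same comparison. The summed level of the 8 fibroblast markers found, of 10 listed (Lum and Fap were not), was 1191 and 525 after Lats1 loss, where WT basal-like cells had 49.7 and 430.4 and the luminal libraries 16.6 to 339, and the 6 tested had a median log2 fold change of 2.59, with 0 called. Of 13 luminal markers listed, 9 were found and tested (Esr1, Pgr, Prlr and Foxa1 were not found). Of the 9, 4 were called lower (Epcam, Krt8, Krt18 and Cdh1, limma). The sum of the 9 was 534 and 660.1 after Lats1 loss against 5899 and 3202 in WT basal-like cells. The part of these fibroblast and luminal markers in the values of the mitotic genes was not tested. None of the 41 mitotic genes was called, against 0.554% of all genes. Cks2 (chromosome 13, 51645232 to 51650660, plus strand) was the 1 gene past the threshold of the study, which 8.84% of all genes passed, at -1.46 ± 0.50 (limma adjusted p = 0.457), and its WT values (46.6 and 35.8) lay above both Lats1-CKO values (12.1 and 16.8). The count of Cks2 may be affected by Secisbp2, which the annotation places at its 3′ end on the same strand. Ccnb1 followed at -1.42 ± 0.80 (adjusted p = 0.678) and Kif20b at -1.20, and Tpx2 (0.33), Ccna2 (0.17) and Cdca3 (0.11) stood at the other end. Both libraries were lower without overlap for 7 of the 41 (Cks2, Ccnb1, Bub3, Kif20b, Kif23, Kif2c and Anln), against 18.2% of all genes, and higher for 0, against 17.1%. A single library on either side again set the median. It was 0.03 without Lats1-CKO basal-like replicate 2 and -0.82 without replicate 1, and leaving out WT basal-like replicate 1 gave -0.04 and replicate 2 -0.87. When any 1 library was left out, Cks2 ran from -1.68 to -1.23 and Ccnb1 from -2.07 to -0.76. The libraries of the groups did not overlap for these genes, so leaving out 1 library could not turn their direction.

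Within Lats1-CKO cells, 35 of the 41 genes were lower in basal-like than in luminal cells, with a median of -0.32 beside 0.01 for all genes. The same 4 luminal markers were called lower here, and the 6 fibroblast markers had a median of 1.85. None of the 41 mitotic genes was called (0.487% of all genes) and none passed the threshold of the study (7.31%). Ccnb1 was lowest at -1.17 ± 0.80 (limma adjusted p = 0.875), then Kif23 at -0.93 and Kif20b at -0.79, and Tpx2 (0.48), Cdca3 (0.21) and Ncapg (0.12) were highest. Both libraries were lower without overlap for 9 of the 41 (Ccnb1, Plk1, Ttk, Cenpe, Kif23, Kif2c, Ube2c, Ckap2 and Cks2), against 18% of all genes, and higher for 0, against 17.8%. The median was 0.09 without Lats1-CKO basal-like replicate 2 and -0.75 without replicate 1. This comparison shares its basal-like libraries with the one before it and its luminal libraries with the second, so the medians are not separate evidence.

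Averaged over both populations, the genotype difference had a median of 0.20, with 33 genes higher in Lats1-CKO cells and 8 lower. That split was not seen on the recovered reads: the median was 0.01, with 21 higher and 20 lower, with edgeR and under both settings of DESeq2. None of the 41 was called (0.288% of all genes) and none passed the threshold of the study (8.69%). Ccna2 (0.76 ± 0.49), Cdca3 (0.65) and Bub1b (0.46) stood highest and Cks2 (-0.60 ± 0.35), Ect2 (-0.56) and Kif20b (-0.46) lowest, and the lowest adjusted p was 0.645, for Cks2. The 95% interval of Ccna2 ran from -0.39 to 1.92. The median turned negative without WT luminal replicate 1 (-0.28), WT basal-like replicate 2 (-0.02) or Lats1-CKO basal-like replicate 1 (-0.03). It was 0.43 without WT basal-like replicate 1, 0.39 without Lats1-CKO basal-like replicate 2, 0.11 without Lats1-CKO luminal replicate 2 and 0.66 without WT luminal replicate 2.

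Averaged over both genotypes, basal-like minus luminal had a median of 0.29, with 35 genes higher and 6 lower. None was called (0.376% of all genes) and none passed the threshold of the study (5.99%). Cdca3 (0.75 ± 0.50), Anln (0.59) and Kif20a (0.57) stood highest, and Ect2 (-0.33), Ccnb1 (-0.11) and Kif23 (-0.09) lowest. Leaving out WT luminal replicate 1 turned the median to -0.17, and leaving out replicate 1 of the basal-like cells gave 0.09 (WT) and 0.08 (Lats1-CKO). With DESeq2 under the settings of the study it was 0.17. It was 0.73 without WT luminal replicate 2, with 10 genes past the threshold of the study, and 0.52 without WT basal-like replicate 2 or Lats1-CKO basal-like replicate 2.

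The interaction, the basal-like minus luminal difference in Lats1-CKO cells less that in WT cells, was below 0 for 39 of the 41 genes, with a median of -1.29 beside -0.02 for all genes. It was called for none of them (0% of all genes, limma), and 1 of them, Cks2, passed the threshold of the study (2.33% of all genes), at -1.71 ± 0.70 (limma adjusted p = 1). Ccnb1 (-2.13 ± 1.13), Kif4 (-1.78) and Kif22 (-1.78) were lowest and Tpx2 (0.28), Ect2 (0.10) and Smc4 (-0.16) highest. The median shrank to -0.31 when WT luminal replicate 1 was left out, to -0.82 when WT basal-like replicate 1 was, and to -0.80 when Lats1-CKO basal-like replicate 2 was, and it grew to -2.21 when WT luminal replicate 2 was. DESeq2 under the settings of the study gave a median of -0.69.

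Other genes of the mitotic program, on a list of 77 of which 65 were found and 59 tested, moved in the same way. All 59 were above 0 in WT basal-like minus WT luminal cells (median 0.81, and 0.04 without WT luminal replicate 1), and 47 had their lowest value in WT luminal replicate 1. In Lats1-CKO luminal minus WT luminal cells 56 of the 59 were above 0 (0.65, and -0.07 without that library). None of the 59 was called in these comparisons. Past the threshold of the study were 1 of the 59 in the first, beside 1.47% of all genes, and 2 in the second, beside 2.78%. They were Cenpm, a centromere protein, in both, at 1.60 ± 0.53 and 1.79 ± 0.53 (limma adjusted p = 1 in each), and Spc25, a subunit of the NDC80 complex of the kinetochore, in the second, at 1.33 ± 0.56 (limma adjusted p = 1).

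The transcription factors that switch the program on were mixed. Foxm1, a forkhead factor of G2, read 27.0 and 98.2 for WT luminal, 191 and 78.8 for WT basal-like, 72.9 and 129 for Lats1-CKO luminal, then 133 and 89.3 for Lats1-CKO basal-like. Mybl2, which encodes B-MYB, read 5.41 and 14.0 for WT luminal, 18.7 and 7.96 for WT basal-like, 12.5 and 25.2 for Lats1-CKO luminal, then 21.4 and 12.9 for Lats1-CKO basal-like. Both were lowest in WT luminal replicate 1, but the 11 tested activators as a list were not: 3 of the 11 had their lowest value there, and the median deviation was 0.06. Of the 10 APC/C subunits and partners tested, 7 were lowest in WT luminal replicate 1, with a median deviation of -0.50. The 16 brakes on the cycle tested, such as the CDK inhibitors, had a median deviation of -0.27 there, and 4 were lowest in that library. In Lats1-CKO basal-like replicate 2 the median deviation of the brakes was -0.36. Cdkn1a, the inhibitor p21, read 157 and 299 for WT luminal, 263 and 126 for WT basal-like, 241 and 619.7 for Lats1-CKO luminal, then 237 and 1129 for Lats1-CKO basal-like. Cdkn2a, the Ink4a and Arf locus, read 328 and 52.3 for WT luminal, 193 and 46.1 for WT basal-like, 16.3 and 139 for Lats1-CKO luminal, then 2.68 and 291 for Lats1-CKO basal-like. Cdkn2a was thus highest in WT luminal replicate 1 and next in Lats1-CKO basal-like replicate 2, the pair of libraries with the lowest mitotic genes. After these came WT basal-like replicate 1 (193), where most of the mitotic genes were highest. Cdkn1a was highest in Lats1-CKO basal-like replicate 2 but low in WT luminal replicate 1. There its 157 exceeded only the 126 of WT basal-like replicate 2. Cdkn2a and Cdkn1a are single genes of the list of brakes. The median of that list lay below 0 in WT luminal replicate 1 and in Lats1-CKO basal-like replicate 2. None of these 37 genes was called in any of the 4 comparisons between groups.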

How the data were processed

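Bulk MARS-seq gave 2 libraries for each of 4 groups (genotype by sorted population), which were taken from the sample labels. The labels carry no replicate numbers, so replicates were numbered in accession order. Per the study's methods, cutadapt trimmed the reads, STAR aligned them to mm10 and htseq-count assigned them to Gencode genes, each extended by 1000 bases at the 5′ and 100 at the 3′ edge. Genes under 5 reads in every library were dropped. The deposited values are a signal per gene, the read count that the authors divided by a DESeq2 size factor. The Gencode release, the strand of counting and the use of molecular identifiers were not given in the sources used here. Of the 45 genes, 11 have another annotated gene within their last 500 bases or 100 bases after them (7 where that gene is in the table), which could affect their counts. Among the 7, Cks2 (with Secisbp2) and Kif22 (with Maz) lie on the same strand as that gene. The deposited fold changes and p-values of 6 pairs of groups were not used.

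Values divided by the value of 1 read were whole for 100% of genes in each library (tolerance 1e-06), which gave back read counts. Precision is set by 1070358 to 2334446 reads per library. Groups were compared by limma (version 3.58.1, in R 4.3.3), with a trend in intensity, on log2(value + 1), so that fold changes of low genes are understated. All 8 libraries entered 1 model (4 residual degrees of freedom), with Benjamini-Hochberg adjustment over the 9031 genes that reached 10 in at least 2 libraries, in each of 7 comparisons. The fit was tested on simulated data. Alternatives were edgeR 4.0.16 and DESeq2 1.42.0 on the recovered reads, other pseudocounts, no filter, other scalings, only the compared groups, and leaving out each library. Leaving out WT luminal replicate 1 and Lats1-CKO basal-like replicate 2 together was chosen after seeing the data. Promoter windows came from RefSeq on GRCm38.p6, gene coordinates and overlaps from GENCODE M21. The genes, their roles and the other gene lists were chosen with earlier results of these data known. Values per library are given for a fixed set of the genes and for the 3 genes with the highest and the 3 with the lowest fold change in a comparison, and the rest by range.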

Additional observations from a re-analysis of the deposited data

Results flagged for a closer look

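For Cks2, the CDK1 docking subunit, and Kif2c, the microtubule depolymerase, both WT basal-like libraries lay above both WT luminal libraries, while both Lats1-CKO basal-like libraries lay below both Lats1-CKO luminal libraries, so the population difference pointed the opposite way in the 2 genotypes. Of all genes, 11.9% were higher without overlap in WT basal-like cells and 18% lower in Lats1-CKO basal-like cells. The share of all genes with both was not counted, so it is not known whether such genes were more common among the mitotic genes than among all genes. For both genes the lower WT basal-like value lay close above the higher WT luminal value. The difference between the genotypes, on the log2 scale, was -1.71 ± 0.70 for Cks2 (limma adjusted p = 1) and -1.42 ± 0.67 for Kif2c (limma adjusted p = 1), so neither was called by the test of the difference itself. Cks2 stood at -1.12 without WT luminal replicate 1, and Kif2c at -0.79.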

How the results depend on the processing

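None of the 41 genes was called at an adjusted p under 0.05 in any of the 7 comparisons under any alternative. The count past the threshold of the study in WT basal-like against WT luminal cells went from 1 to 0 with edgeR, with DESeq2 under default settings and the settings of the study, with only the compared groups, and without WT luminal replicate 1 and Lats1-CKO basal-like replicate 2 together, and that of the interaction from 1 to 0 under the same alternatives except only the compared groups, which was not run there. It went from 0 to 1 within Lats1-CKO cells with only the compared groups (Ccnb1) and in the genotype average without that pair of libraries (Cks2). Leaving out 1 library at a time, where the lone library of a group is assumed to vary like the others, gave counts of 0 to 28 (WT populations), 0 to 27 (genotype, luminal), 0 to 2 (genotype, basal-like), 0 to 1 (Lats1-CKO populations), 0 to 7 (genotype average), 0 to 10 (population average) and 0 to 23 (interaction), and medians, in log2 units, of -0.026 to 1.87, -0.18 to 1.78, -0.87 to 0.03, -0.75 to 0.09, -0.28 to 0.66, -0.17 to 0.73 and -2.21 to -0.31. Without that pair of libraries the medians were -0.026, -0.18, 0.03, 0.09, -0.13, 0.08 and 0.13 in the same order. On the recovered reads the medians, in that order, were 0.66, 0.45, -0.47, -0.25, 0.01, 0.22 and -0.95 with edgeR, and 0.53, 0.32, -0.35, -0.18, 0.01, 0.17 and -0.69 with DESeq2 under the settings of the study. The other alternatives (pseudocounts of 0.5 and 5, no filter, TMM, library totals) moved the medians by less than the replicate spread of 0.83. That spread is larger than most of the medians, so this limit cannot show that they are stable. In WT basal-like against WT luminal cells the median was 0.93 and 0.82 with the pseudocounts, 0.92 with no filter and 0.88 with library totals. Scaling to library totals moved the median of all genes in the Lats1-CKO population comparison from 0.01 to -0.10, and that of the 41 genes relative to it was -0.34 under both. The count of all genes called differed between tools: 50 with limma, 17 with edgeR and 190 with DESeq2 for genotype in basal-like cells, 44, 28 and 129 for population in Lats1-CKO cells, and 0, 0 and 22 for genotype in luminal cells. It was 0 with only the compared groups in each of these, where fewer libraries set the spread. The cause of the other changes was not tested. No paired analysis was possible because the labels carry no replicate numbers shared between groups. With 2 libraries a group, 95% intervals of most of the genes spanned more than a 2-fold change in either direction or both, and at 1 to 24 reads a group, as for Cdk1, Bub1, Cenpf and Smc2, counting error limits the comparison.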

Other observations

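Genes of DNA replication, which act before mitosis, were likewise low in WT luminal replicate 1. Of 20 listed, 19 were found and 16 tested, and 15 of the 16 had their lowest value in WT luminal replicate 1. Mcm6, a subunit of the replicative helicase, read 70.3 and 325 for WT luminal, 460.1 and 203 for WT basal-like, 232 and 264 for Lats1-CKO luminal, then 478 and 184 for Lats1-CKO basal-like. Pcna, the sliding clamp, read 196 and 377 for WT luminal, 566 and 348 for WT basal-like, 367 and 353 for Lats1-CKO luminal, then 488 and 245 for Lats1-CKO basal-like. Rrm2, the regulated subunit of ribonucleotide reductase, read 28.4 and 106 for WT luminal, 206 and 66.8 for WT basal-like, 81.6 and 199.8 for Lats1-CKO luminal, then 189 and 123 for Lats1-CKO basal-like. The median log2 fold change of the 16 was 0.88 in WT basal-like minus WT luminal cells (0.23 without WT luminal replicate 1) and 0.58 in Lats1-CKO luminal minus WT luminal cells (-0.01 without it), and none was called in either by limma.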
